A study of Mus musculus with 12 samples.

Results

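MJ041 was compared with vehicle in cultured primary mouse hepatocytes labelled Hnf4a knockout (KO), in 6 of the 12 libraries of the series. The chosen libraries are those whose labels give the KO genotype, 3 treated with MJ041 and 3 with the solvent vehicle DMSO. The other 6 libraries are wild type (WT) hepatocytes with the same 2 treatments, 3 libraries each, and are used here to set the KO values beside. MJ041 is known only by this code name, and the series title calls it a candidate ligand. Dose and exposure time are not in the labels, which also do not say how the Hnf4a deletion was made or whether replicates came from separate animals. The p-values therefore measure the spread between libraries, and how much of it is technical was not tested. In KO some genes had the same order of replicates in both treatments, and the main fit holds no term for the replicate number. The comparison asks what MJ041 does to hepatocyte transcripts when the receptor gene named in the title is knocked out.

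HNF4A is a nuclear receptor that binds DNA as a homodimer and keeps up the expression of many genes that define a hepatocyte, among them genes for secreted plasma proteins, apolipoproteins, clotting factors and drug-metabolising enzymes. Its ligand pocket holds fatty acids. Other ligand-activated factors of the hepatocyte are read here through their known target genes. They include the aryl hydrocarbon receptor (AHR), which induces Cyp1a1, the constitutive androstane and pregnane X receptors, which induce drug-metabolising enzymes, and PPARα, which induces fatty acid oxidation.

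The KO libraries held 16740761 to 17563614 counts, and 14919 genes passed the filter on low counts. Levels are given as CPM, counts scaled to a common library total with TMM factors. Albumin mRNA took 1.83% to 2.05% of the counts in the 6 KO libraries. On the first principal component of these 6 libraries, which held 44.4% of their variance, the MJ041 libraries lay at -24.6, 25.1 and 0.1 and the vehicle libraries at -21.1, 22.6 and -2.0 for replicates 1, 2 and 3. That component thus separated the replicates and not the treatments. On the second component (19.3%) the MJ041 libraries lay at -4.7, 16.9 and 7.2 and the vehicle libraries at 11.2, -14.8 and -15.8, so vehicle replicate 1 lay among the MJ041 libraries. Genes at the ends of the first component, chosen after their values were seen, had the same order of replicates in both treatments. Trim12a, a member of the tripartite motif family, was at 25.9, 0 and 10.2 CPM in MJ041 replicates 1, 2 and 3 and at 20.2, 0 and 8.98 CPM in the vehicle replicates. H2-Q7, a nonclassical MHC class I gene, was at 51.7, 1.03 and 23.2 CPM with MJ041 and at 41.9, 0.756 and 23.9 CPM with vehicle. Nnmt, which methylates nicotinamide, had the opposite order, at 14.6, 64.4 and 36.8 CPM with MJ041 and 18.4, 52.6 and 31.4 CPM with vehicle. Each treatment group held 1 high, 1 low and 1 intermediate library for these genes. The H2-Q genes are close paralogs, so their counts may share reads.

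**Figure D1:**
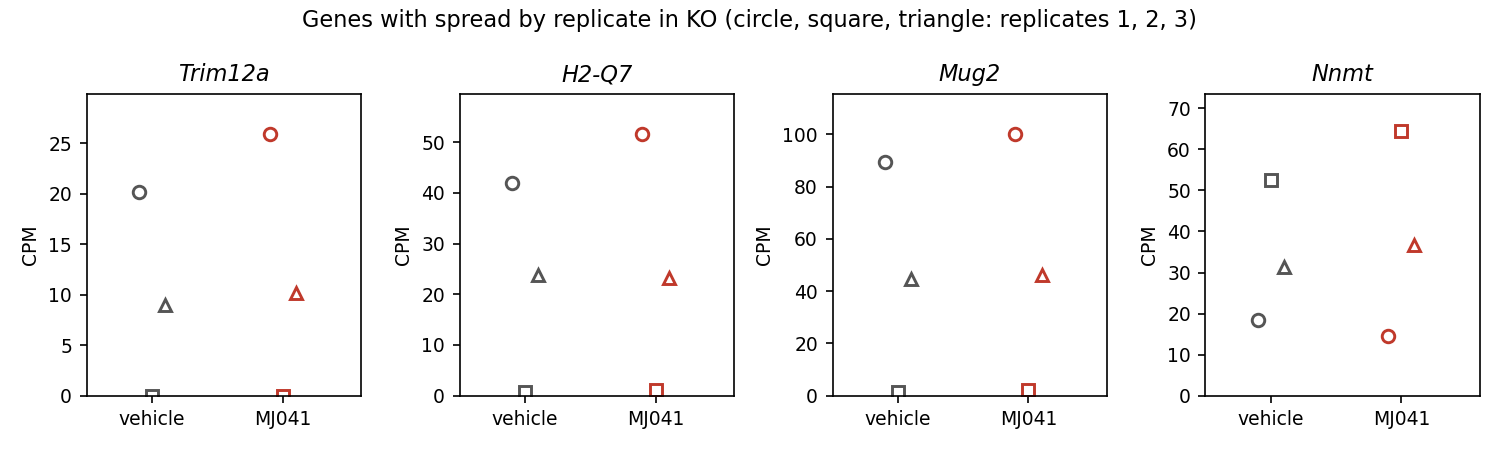
CPM (linear axis from 0) of Trim12a, H2-Q7, Mug2 and Nnmt in the 6 KO libraries, with 1 point per library and replicates 1, 2 and 3 as circle, square and triangle. In both treatments Trim12a, H2-Q7 and Mug2 are highest in replicate 1, Nnmt is highest in replicate 2, and replicate 3 lies between.

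The targeted gene was measured first. Hnf4a mRNA was at 59.9, 76.0 and 66.7 CPM in the MJ041 libraries and at 61.1, 67.8 and 66.4 CPM in the vehicle libraries. The groups overlapped, with a log2 fold change of 0.05 ± 0.10 (SE) and a 95% interval of -0.17 to 0.28. With vehicle, the KO level was 52.7% of the WT level (log2 fold change of KO against WT -0.92, edgeR quasi-likelihood test, adjusted p = 8.86e-06). Reads over the whole gene were counted, so this level does not report on exons that a deletion may remove. With vehicle, the mean of log2(CPM + 1) over 50 tested HNF4A target genes was 4.949, 5.02 and 5.037 in KO. In WT with vehicle it was 6.418, 6.664 and 6.712. The related receptor Hnf4g was near the detection limit, at 0.801 to 1.12 CPM with MJ041 and 0.743 to 0.872 CPM with vehicle.

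No gene passed an adjusted p of 0.05 for MJ041 against vehicle in KO by edgeR's quasi-likelihood test, 0 of 14919 (0%), and none did by limma-voom. By DESeq2 there was 1 such gene (0.0067%), Cyp1a1, which was higher with MJ041. At an unadjusted p below 0.05, edgeR listed 414 genes (2.77%), DESeq2 272 (1.82%) and voom 432 (2.9%), where 746 would be 5% of the genes tested. Of the 414 genes, 188 (1.26%) were higher with MJ041 and 226 (1.51%) lower. The 3 MJ041 libraries all lay above the 3 vehicle libraries for 766 genes (5.13%) and all below for 653 (4.38%), together 9.51% of the genes. Of the 10657 genes whose higher group averaged 5 CPM or more, 0 differed by 2-fold or more.

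**Figure D2:**
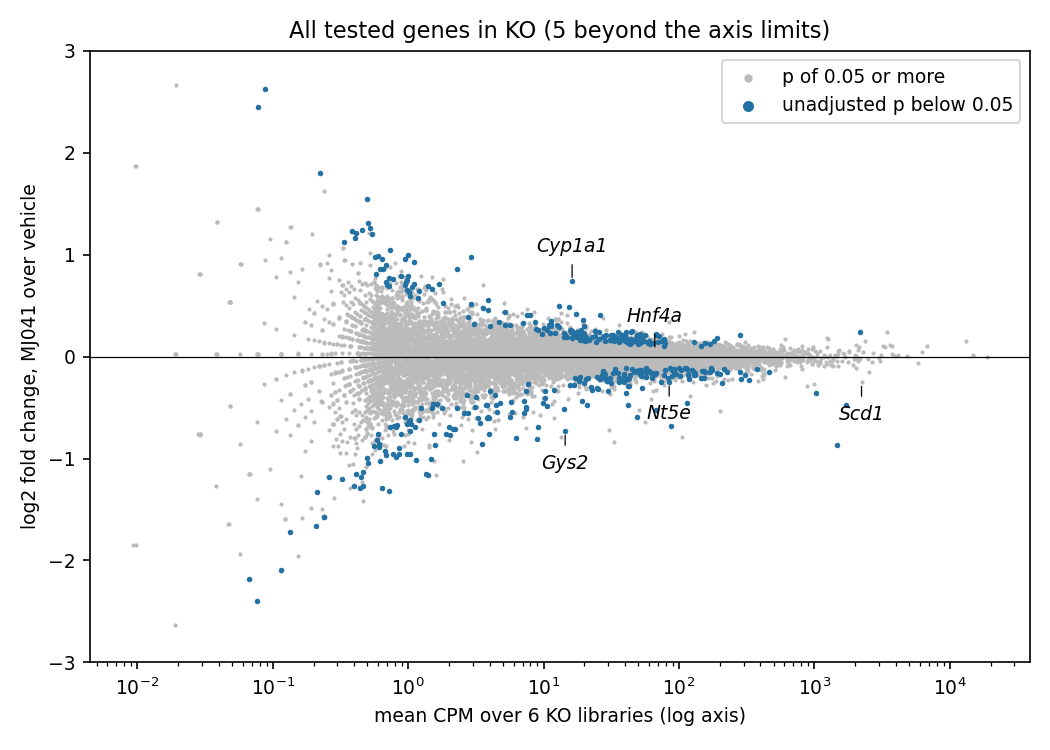
Log2 fold change of MJ041 over vehicle in KO against mean CPM over the 6 KO libraries (log axis), 1 point per tested gene, with genes at an unadjusted edgeR p below 0.05 in blue. The spread narrows as the level rises, 5 genes lie outside the plotted range of the fold change, 5 genes at 0 in all KO libraries have no place on the log axis, and Cyp1a1, Gys2, Nt5e, Scd1 and Hnf4a are named.

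The intervals show how large a response these libraries leave room for. Of the 10575 genes averaging 5 CPM or more over the KO libraries, 9864 (93.3%) had a 95% interval that lay wholly within a 1.5-fold change either way, and 98.7% lay within a 2-fold change. Within 1.25-fold the share was 69.5%. The median half-width of the interval was 0.183 on the log2 scale for these genes and 0.903 for the 1825 genes under 1 CPM. For genes under 1 CPM, 26.8% of the intervals lay within 2-fold, so for the rest of these genes the interval does not leave out a change beyond 2-fold. The median size of the log2 fold change over all tested genes was 0.073 in KO and 0.135 in WT. Over all 14919 tested genes, 10371 of the KO intervals (69.5%) lay within 1.5-fold.

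Cyp1a1, which encodes the cytochrome P450 that serves as the classical readout of AHR, had the smallest p in KO. It was at 19.3, 20.9 and 20.7 CPM with MJ041 and at 11.1, 13.02 and 12.4 CPM with vehicle. All MJ041 libraries lay above all vehicle libraries, at 20.3 ± 0.909 against 12.2 ± 0.957 CPM (SD, n = 3 each). The log2 fold change was 0.74 ± 0.14 (SE), a 1.67-fold difference with a 95% interval of 1.35 to 2.06. It did not pass in edgeR (adjusted p = 1) and passed in DESeq2 (adjusted p = 0.0348). Over the 20 alternative analyses its log2 fold change stayed between 0.67 and 0.79, its adjusted p ran from 0.00426 to 1, and it passed in 3 of them.

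In WT cells Cyp1a1 was at a lower level, and its groups overlapped, at 4.94, 4.06 and 3.84 CPM with MJ041 and 4.15, 5.19 and 6.57 CPM with vehicle. The WT log2 fold change was -0.31 (edgeR adjusted p = 0.3). The difference between the KO and WT responses was 1.05 ± 0.22 (SE) on the log2 scale. It did not pass in edgeR (adjusted p = 0.119) and passed in DESeq2 (adjusted p = 0.00467). With vehicle alone, Cyp1a1 was higher in KO than in WT by 1.20 on the log2 scale (edgeR adjusted p = 2.49e-05).

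The promoter of Cyp1a1 is printed because AHR is known to bind DNA at a core of GCGTG. The 250 bases before the RefSeq start of Cyp1a1 (GRCm38.p6, chr9:57697363-57697612, plus strand) follow, with the 1 match to that core in capitals, 54 bases before the start.
Cyp1a1: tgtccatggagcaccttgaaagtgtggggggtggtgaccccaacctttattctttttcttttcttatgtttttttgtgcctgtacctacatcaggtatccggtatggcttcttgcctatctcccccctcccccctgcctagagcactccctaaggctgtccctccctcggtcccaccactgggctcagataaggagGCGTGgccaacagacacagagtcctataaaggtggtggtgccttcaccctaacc
The search covered GCGTG and its reverse complement CACGC. Windows of this length held at least 1 match in 28.2% of the 32851 RefSeq promoters searched. Of the 22 promoters of the AHR list that were matched, 11 held one. Promoters on 1 chromosome and those with fewer than 250 bases were left out of the search. A match describes letters and is not evidence of binding.

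No other member of the AHR list passed in edgeR or DESeq2. Of the 25 genes in the AHR list 23 were tested, 12 with a positive and 11 with a negative log2 fold change, and the median was 0.01, as over all genes (0.01). Cyp1a2, a second AHR-induced P450 of the same family, was at 70.7, 63.6 and 60.8 CPM with MJ041 and 62.5, 69.2 and 67.0 CPM with vehicle. Its log2 fold change was -0.03 with an interval of -0.25 to 0.20, which leaves out a change of the size seen for Cyp1a1. Tiparp, which encodes an AHR-induced mono-ADP-ribosyltransferase, had a log2 fold change of -0.20 ± 0.15 (SE) and Nqo1, a quinone reductase, had 0.10 ± 0.15 (SE). Ahr itself had 0.02 ± 0.10 (SE). Cyp1b1, at 0.457 to 1.17 CPM, was too low to be informative, with an interval of -0.92 to 2.06.

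The 10 lower genes of smallest p included Gys2 of glycogen synthesis and Dgat1 of triglyceride synthesis, and none passed adjustment (edgeR adjusted p = 1 for each). Gys2, the glycogen synthase of liver, was at 12.4, 8.76 and 11.5 CPM with MJ041 and at 15.1, 17.2 and 21.8 CPM with vehicle. Groups without overlap and a small p were conditions for choosing these genes, so neither is a result here. The Gys2 level with MJ041 was 0.603 of that with vehicle (95% interval 0.468 to 0.776).

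Nt5e, the ecto-nucleotidase CD73 that makes extracellular adenosine, was at 78.0, 75.7 and 78.4 CPM with MJ041 and at 96.0, 86.4 and 93.3 CPM with vehicle. The difference was small and tight, a log2 fold change of -0.25 ± 0.06 (SE). Dgat1, which adds the last acyl chain to triglyceride, was at 28.0, 25.8 and 25.9 CPM with MJ041 against 30.7, 30.3 and 31.1 CPM with vehicle. Tmc7, a transmembrane channel-like protein, was at 9.13, 8.58 and 8.83 CPM against 11.9, 11.7 and 13.4 CPM. The remaining lower genes were Tc2n (log2 fold change -0.80), the endosome tether Eea1 (-0.21), the zinc and iron importer Slc39a14 (-0.22), the chromatin factor Ss18l1 (-0.33), the noncoding RNA Snhg6 (-0.21) and the mitochondrial folate enzyme Mthfd2 (-0.22). Tc2n was the only one of these 10 besides Gys2 whose estimate was beyond 1.5-fold.

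**Figure D3:**
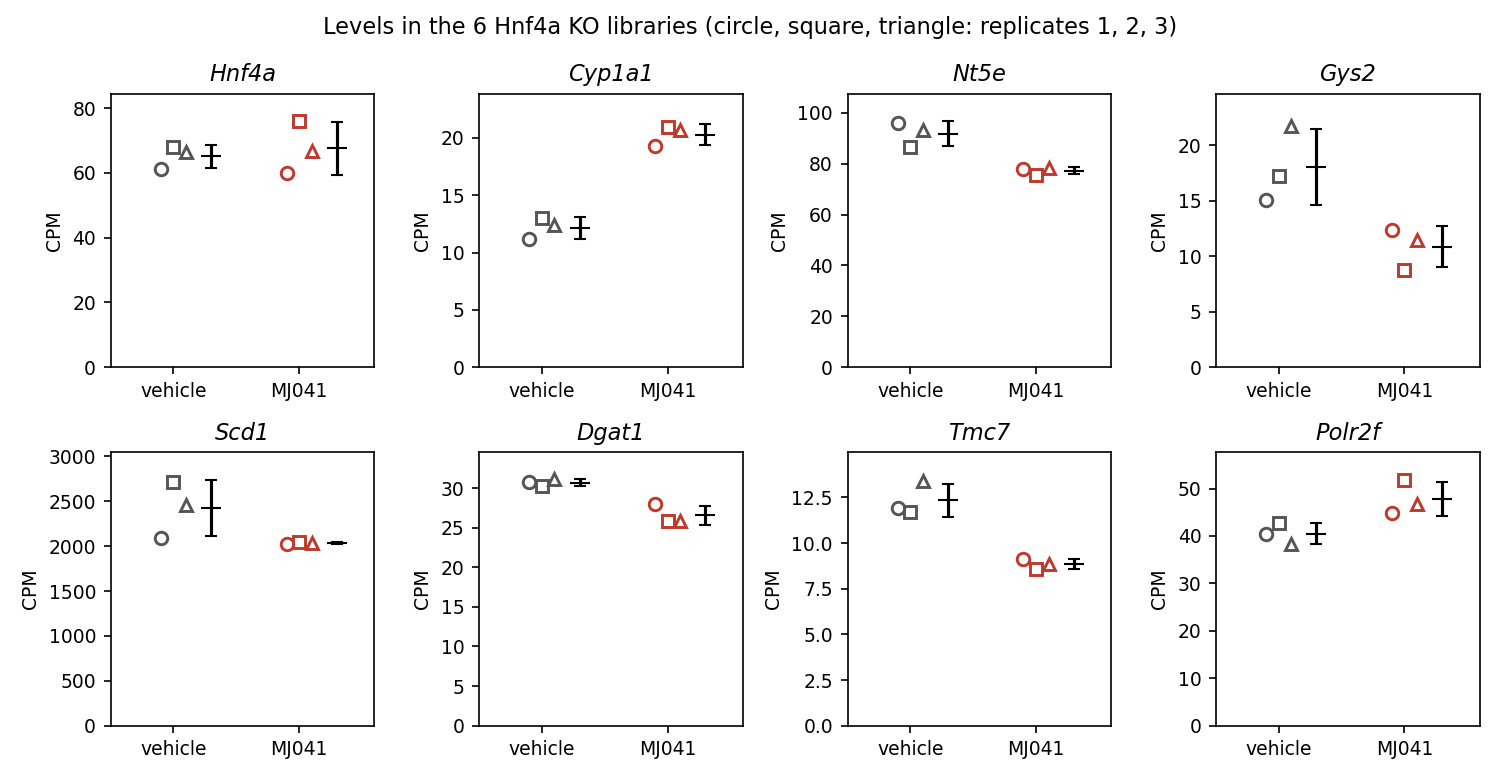
CPM (linear axes from 0) of 8 genes in the 3 vehicle (grey) and 3 MJ041 (red) KO libraries, with replicates 1, 2 and 3 as circle, square and triangle and bars showing mean ± SD. Hnf4a overlaps between the groups, Cyp1a1 and Polr2f are higher in all MJ041 libraries, and Nt5e, Gys2, Scd1, Dgat1 and Tmc7 are lower in all of them. Polr2f, Nt5e, Gys2, Dgat1 and Tmc7 were chosen among genes whose groups do not overlap.

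The higher genes of smallest p after Cyp1a1 had small differences, and none passed adjustment (edgeR adjusted p = 1 for each). Polr2f, a subunit shared by the nuclear RNA polymerases, was at 44.8, 51.8 and 46.7 CPM with MJ041 and at 40.4, 42.7 and 38.3 CPM with vehicle. Timm13, a chaperone of mitochondrial protein import, was at 81.5, 85.8 and 79.3 CPM against 71.8, 73.5 and 72.9 CPM. These are log2 fold changes of 0.24 and 0.18. The others were Cdadc1 (0.24), the Golgi N-glycan enzyme Mgat2 (0.22), the sarcoglycan Sgcb (0.32), the vesicle-tethering subunit Vps51 (0.25), Jtb (0.21), the LRP1 chaperone Lrpap1 (0.18) and the inner-membrane protein Romo1 (0.22). Sgcb had the largest estimate of these 9.

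No gene of the HNF4A network passed adjustment. Of 24 tested members of the list of HNF4 family members, partner factors and cofactors, 12 had positive and 12 negative log2 fold changes, with a median of 0.01. Onecut2, a homeodomain factor of the liver, was at 201, 178 and 195 CPM with MJ041 and at 196, 243 and 245 CPM with vehicle (log2 fold change -0.26 ± 0.11, SE). Of 50 tested HNF4A target genes, 0 had an unadjusted p below 0.05 in the higher direction and 3 in the lower, namely Gys2, Lipc and F10. The background for the lower direction was 1.51% of all genes. The list's median was -0.05 in KO and 0.18 in WT. Alb, at 18270, 19110 and 19120 CPM with MJ041 and 17900, 20660 and 18100 CPM with vehicle, had a log2 fold change of 0.00 ± 0.11 (SE). Lipc, the hepatic lipase, was at 2.53, 2.17 and 3.16 CPM against 2.69, 4.88 and 4.80 CPM, so its groups overlapped.

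Lists of intermediary metabolism leaned to lower values in KO and to higher values in WT, with few members at an unadjusted p below 0.05. For sugar and glycogen metabolism 31 of 38 tested members were negative in KO, with a median of -0.09, while the WT median was 0.35 and 9 members passed in WT. In KO 2 members had an unadjusted p below 0.05, Gys2 among them. For fatty acid and triglyceride synthesis 24 of 31 were negative (median -0.08, WT median 0.38), and for cholesterol synthesis 22 of 28 (median -0.06, WT median 0.31). Over all tested genes 47.6% were negative and 52.4% positive in KO, and 2.21% passed in WT, which are the shares to read the counts of each list against.

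Scd1, the stearoyl-CoA desaturase, was at 2025, 2047 and 2039 CPM with MJ041 and at 2094, 2718 and 2458 CPM with vehicle, a log2 fold change of -0.25 ± 0.18 (SE). Acly, which makes cytosolic acetyl-CoA, was at 410, 363 and 387 CPM against 431, 452 and 465 CPM. Fabp5, a fatty acid carrier, was at 82.3, 112 and 94.1 CPM against 108, 153 and 136 CPM (log2 fold change -0.46 ± 0.17, SE). Both Scd1 and Acly had no overlap between groups, and both passed in WT in the opposite direction (log2 fold changes 0.85 and 0.55). Msmo1, a sterol oxidase of cholesterol synthesis, had a log2 fold change of -0.17 in KO.

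For the sugar list the mean level per library, as the mean of log2(CPM + 1) over members, was 6.549, 6.231 and 6.374 with MJ041 and 6.388, 6.576 and 6.604 with vehicle. MJ041 replicate 1 lay within the vehicle range, so the groups overlapped. A list of hypoxia-induced genes, which includes several glycolytic enzymes, lay at 6.682, 6.108 and 6.374 against 6.207, 6.692 and 6.667. In both lists MJ041 replicate 2 and vehicle replicate 1 were the lowest libraries of their groups. It had 18 of 19 members negative with a median of -0.12 and none at an unadjusted p below 0.05. The part of the hypoxia-type genes in the values of the sugar list was not tested.

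Lists of drug and fat sensing showed no call in KO. Of 42 tested targets of the constitutive androstane and pregnane X receptors, 28 were negative, with a median of -0.08 against 0.25 in WT. Their mean level did lie lower in every MJ041 library, at 4.457, 4.483 and 4.456 against 4.505, 4.569 and 4.50. By this measure most lists overlapped between treatments, those of fatty acid and triglyceride synthesis and of cholesterol synthesis among them. Among single genes 9.51% had no overlap in either direction, so a list without overlap is only described here. Por, the reductase that supplies electrons to cytochrome P450 enzymes, was at 281, 316 and 306 CPM against 299, 399 and 362 CPM (log2 fold change -0.23 ± 0.10, SE). For PPARα targets and fatty acid oxidation 31 of 54 were positive with a median of 0.02, and Mlycd, malonyl-CoA decarboxylase, was the member at an unadjusted p below 0.05 (log2 fold change 0.24). The oxidative stress targets of NRF2 had 22 of 40 positive, a median of 0.02 and no member at an unadjusted p below 0.05. Of their 40 intervals 38 lay within 1.5-fold, where 69.5% did over all genes.

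Interferon and inflammatory genes also lacked calls. Of 49 interferon-response genes 36 were positive with a median of 0.06, 0 had an unadjusted p below 0.05, and 38 intervals lay within 1.5-fold. Over all genes 52.4% were positive and 69.5% of the intervals lay within 1.5-fold. In WT the median of the same list was -0.54 and 22 members passed, where 2.21% of all genes passed. Irgm2, an immunity-related GTPase, was at 202, 172 and 191 CPM with MJ041 and 183, 166 and 162 CPM with vehicle in KO. For NF-κB and inflammation genes 25 of 43 were negative with a median of -0.02, against a WT median of -0.57 with 13 members passing. Integrated stress response genes had 30 of 37 negative with a median of -0.05, and Mthfd2 and asparagine synthetase (Asns, log2 fold change -0.12) were at an unadjusted p below 0.05.

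Genes of growth and energy supply leaned slightly upward, beside 52.4% positive over all genes. For the nuclear-encoded respiratory chain 41 of 45 were positive with a median of 0.04. All 45 intervals lay within 1.5-fold, where 69.5% did over all genes. The mean level of this list was 6.844, 6.874 and 6.838 with MJ041 against 6.815, 6.816 and 6.791 with vehicle. All 7 tested mitochondrially encoded members were positive, with a median of 0.15. The other 6 of the 13 listed had 0 counts in all KO libraries, for a reason that was not tested. Neither these values nor the share of mitochondrial counts covers them. The share of all counts on mitochondrially encoded genes was also higher in each MJ041 library, at 3.26%, 2.97% and 3.06% against 2.95%, 2.83% and 2.84% with vehicle, and its part in these values was not tested. The ribosomal RNA mt-Rnr1 went the other way, at 1936, 1031 and 1321 CPM against 2304, 1585 and 2084 CPM. Among the 7 tested members, mt-Nd4, a complex I subunit, was at 2455, 2309 and 2288 CPM with MJ041. It was at 2097, 1956 and 1932 CPM with vehicle (log2 fold change 0.24 ± 0.09, SE). For proteasome and MHC class I genes 26 of 29 were positive, with a median of 0.06.

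For the cell cycle 44 of 47 were positive (52.4% over all genes) with a median of 0.10, yet 1 member, the mitotic kinase Aurkb, had an unadjusted p below 0.05. Aurkb was at 10.7, 18.7 and 16.1 CPM with MJ041 and 8.17, 13.7 and 10.5 CPM with vehicle. The cell-cycle level per library was 4.724, 5.469 and 5.215 against 4.864, 5.242 and 5.010, so the replicates differed by more than the treatments. Replicate 1 was the lowest and replicate 2 the highest in each treatment.

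**Figure D4:**
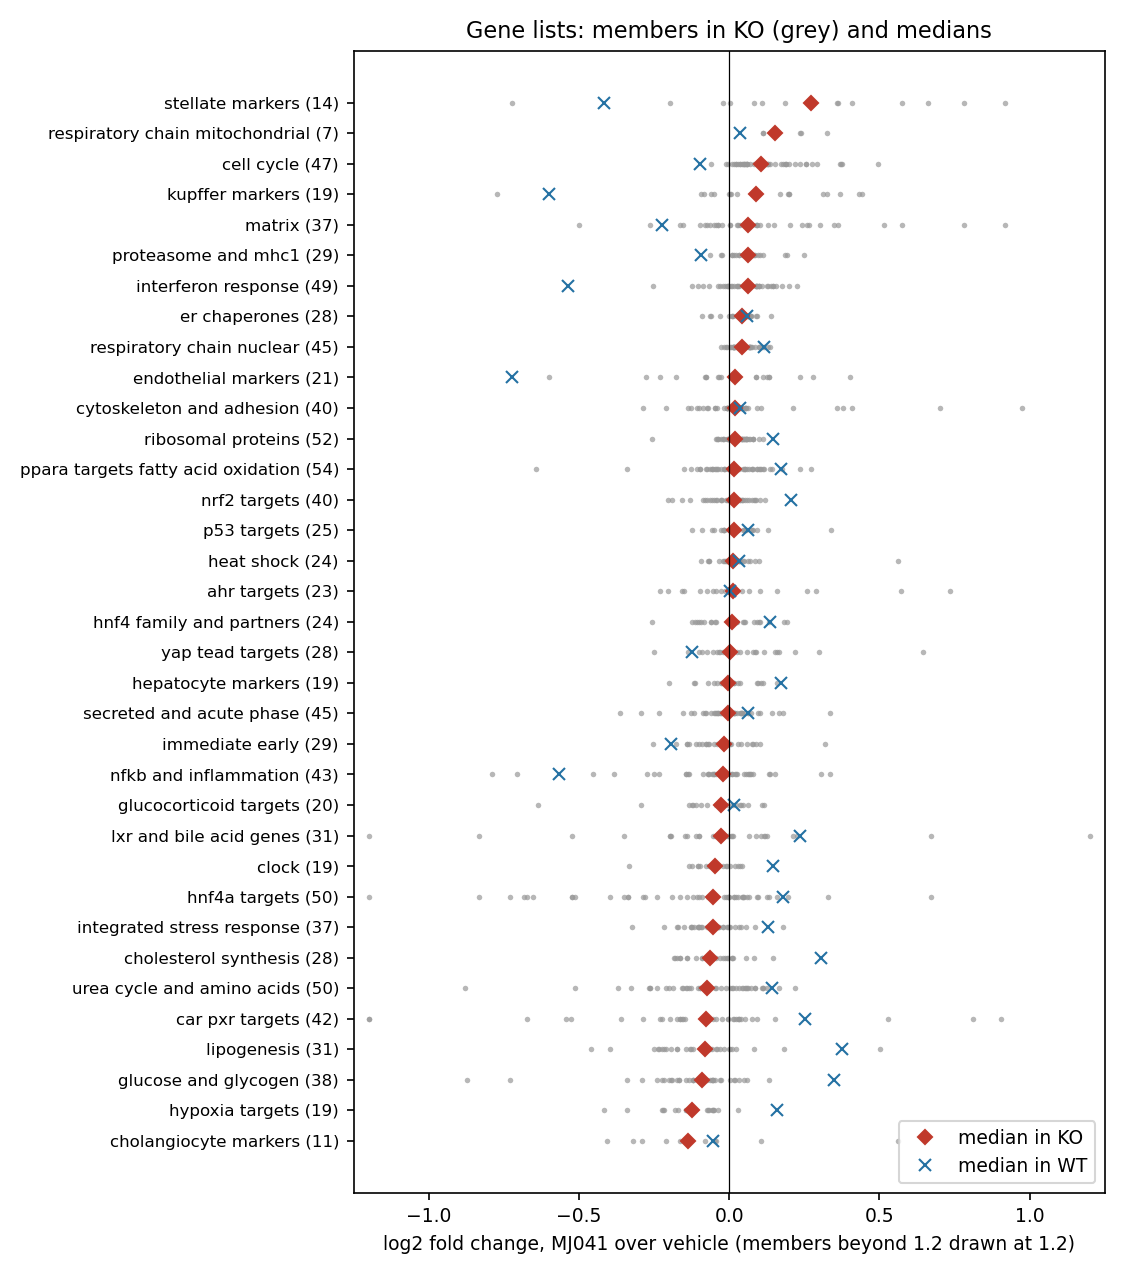
Log2 fold change of MJ041 over vehicle for each gene list except lymphocyte and neutrophil markers, of which 2 were tested (number of tested members in brackets), with KO members as grey points, the KO median as a red diamond and the WT median as a blue cross. The KO medians drawn lie between -0.14 and 0.27, and the interferon, inflammation, Kupffer cell and endothelial lists have WT medians below -0.5. Members beyond 1.2 are drawn at 1.2.

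Markers of other liver cells were present at low levels in the KO cultures and overlapped between treatments in their summed CPM. Hepatocyte markers summed to 41670 to 43160 CPM with MJ041 and 39390 to 45670 CPM with vehicle. Kupffer cell markers summed to 628 to 640 against 606 to 647 CPM, endothelial markers to 329 to 401 against 290 to 448 CPM, stellate cell markers to 182 to 207 against 166 to 224 CPM, and cholangiocyte markers to 514 to 725 against 573 to 739 CPM. Lymphocyte and neutrophil markers summed to at most 3.34 CPM, and Klrb1c had 0 counts in the 6 KO libraries. In bulk samples fewer cells of a type and less RNA per cell cannot be told apart. As the mean over members, stellate markers lay higher in every MJ041 library (11 of 14 positive, median 0.27), with Tagln, an actin-binding protein, at 21.7, 23.7 and 20.9 CPM against 18.2, 15.5 and 17.9 CPM. Other members differed from Tagln: Reln, a secreted matrix glycoprotein, had a log2 fold change of -0.72 and Ecm1, the extracellular matrix protein 1 gene, had 0.00. The list of cytoskeleton and adhesion genes, which also holds Tagln, lay higher in each MJ041 library as well, at 7.170, 7.127 and 7.121 against 7.064, 7.107 and 7.118, with 22 of 40 members positive and a median of 0.02. The retinol-storing stellate gene Lrat had 6 counts over the 6 KO libraries. Of the cholangiocyte markers 9 of 11 were negative, among them the transcription factor Sox9 at 23.2, 21.9 and 22.4 CPM against 23.4, 29.5 and 31.3 CPM.

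The KO values were then read for the genes that differed between MJ041 and vehicle in the WT libraries. In WT 329 genes passed edgeR's adjusted p of 0.05 (2.21%), 177 higher (1.19%) and 152 lower (1.02%). Leaving out any 1 of the 12 libraries moved this count by over 1.5 times, to 0 without KO MJ041 replicate 3, KO vehicle replicate 1 or 3, WT MJ041 replicate 2 or WT vehicle replicate 1, and to 2059 without WT MJ041 replicate 3. These genes were chosen on the contrast of the WT libraries. The KO libraries entered that choice through the shared filter, TMM scaling and estimate of spread. In KO, 0 of the 329 passed. The 177 genes that rose in WT had a median log2 fold change of 0.48 there and -0.04 in KO, where 119 were negative (67.2%, against 47.6% of all genes). The 95% interval in KO excluded the WT estimate for 177 of the 177 genes, and 158 intervals lay within 1.5-fold. Over all tested genes 69.5% of the KO intervals lay within 1.5-fold. The 152 genes that fell in WT had a median of -0.83 there and 0.05 in KO, where 98 were positive (64.5%, against 52.4% of all genes). Their KO interval excluded the WT estimate for 150, and 94 of the 152 intervals lay within 1.5-fold. A WT estimate chosen for passing a threshold tends to be too large. The same estimate of spread for a gene also enters both its choice in WT and its KO interval. These exclusions are therefore a description and not a test. Without each KO library in turn the KO median stayed between -0.0661 and -0.0419 for the 177 genes and between 0.0109 and 0.0644 for the 152.

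**Figure D5:**
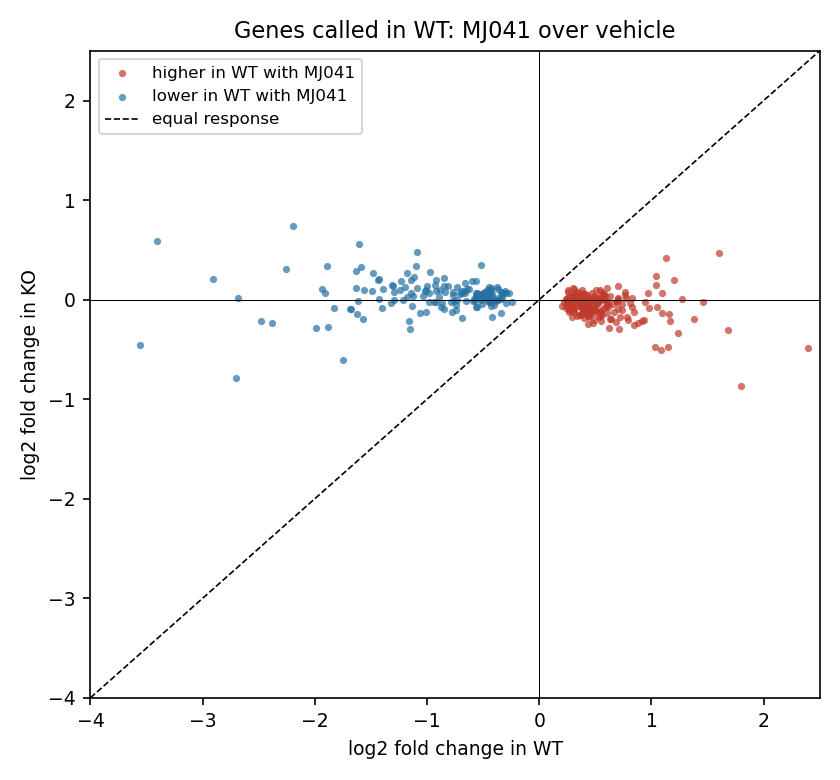
Log2 fold change of MJ041 over vehicle in KO (vertical axis) against WT (horizontal axis) for the 329 genes that passed in WT, with the dashed line marking an equal response. The points lie along the horizontal line at 0 and not along the dashed line.

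The mean level of the 177 genes, as log2(CPM + 1), was 6.133, 6.070 and 6.097 in the KO MJ041 libraries and 6.140, 6.161 and 6.178 in the KO vehicle libraries. All MJ041 libraries thus lay below all vehicle libraries, with means of 6.10 and 6.16. Tkfc, the triokinase of fructose metabolism, rose in WT by 0.78 on the log2 scale (edgeR adjusted p = 0.0294). In KO it was at 61.5, 52.99 and 56.3 CPM with MJ041 and 64.0, 60.7 and 67.8 CPM with vehicle. Chac1 (0.85 in WT, -0.13 in KO), Pqlc1 (0.47 and 0.07) and Htatip2 (0.78 and 0.02) were other rises that the naming rule takes.

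Among the genes that fell in WT, the interferon-inducible GTPase Ifi47 had a log2 fold change of -0.67 there. In KO it was at 62.0, 63.3 and 64.7 CPM with MJ041 and 57.6, 58.6 and 52.9 CPM with vehicle, with no overlap in the opposite direction (0.17 ± 0.10, SE). Irf5, an interferon regulatory factor, had -0.93 in WT and 0.14 in KO, and the interleukin-1 receptor Il1r1 had -0.66 and 0.07. Pnp, a purine salvage enzyme, had -0.57 and 0.03, and the carbonic anhydrase Car13 had -0.73 and -0.01. The Kupffer, endothelial and stellate marker lists had WT medians of -0.60, -0.72 and -0.42. Hepatocyte and cholangiocyte markers had WT medians of 0.17 and -0.05. Fewer cells of a type and less RNA per cell cannot be told apart in the WT libraries either. The part of cell content in the WT falls was not tested.

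The difference between the KO and WT responses was tested gene by gene as an interaction. By edgeR 0 of 14919 genes passed (0%), with a smallest adjusted p of 0.119, although 1980 genes (13.3%) had an unadjusted p below 0.05. DESeq2 called 218 genes (1.46%) and voom 0 (0%), with 2056 genes (13.8%) at an unadjusted p below 0.05 in voom. Of the 218 genes, 76 had the higher response in KO and 142 the lower, and 156 were also among the 329 genes passing in WT. Their median size of response was 0.133 on the log2 scale in KO and 0.513 in WT. In KO 34 of them had an unadjusted edgeR p below 0.05, where 2.77% of all genes did. The interaction that chose these genes contains both responses, so these figures describe the choice and are no separate support for a response in KO. The edgeR count for the interaction became 852 without WT MJ041 replicate 3 and 7 without WT vehicle replicate 2. Whether single genes responded differently in the 2 genotypes thus depends on the analysis.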

How the data were processed

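RNA from 12 libraries of primary mouse hepatocytes was sequenced on an Element AVITI instrument from stranded libraries, per the labels' protocols. The authors deposited raw read counts per Ensembl gene, without normalization. Per the submitters' processing notes, FastQC, Trimmomatic 0.34, STAR 2.7.10b, featureCounts and DESeq2 were used with the mouse genome mm39. Strand and multimapping settings are not given in the sources used here. Reference tables of build GRCm38 gave only gene symbols (52081 of 55414 identifiers; 14885 of 14919 tested genes) and the promoter sequence from RefSeq. Up to 0.274% of the counts of a library fell on genes with no symbol.

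The libraries held 16740761 to 17902832 counts. Intervals cover the spread between libraries as modelled, and PCR copies of a molecule could not be removed. Between KO libraries of 1 group the chi-square over genes was 4.73 to 15.98 times its degrees of freedom, above sampling noise, so none is a repeated reading.

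Genes were kept by filterByExpr (minimum count 10) and scaled by TMM. edgeR 4.0.16 (R 4.3.3) fitted all 12 libraries by quasi-likelihood with a coefficient for each group. The p-values were adjusted by Benjamini-Hochberg over all 14919 genes, and genes passed below 0.05. The SE was taken from the log2 fold change and its F statistic. DESeq2 1.42.0, limma-voom (limma 3.58.1), other filters and scaling, a replicate term, the KO libraries alone and leaving out each library were the 20 alternatives. With 3 libraries against 3, an exact permutation test cannot go below p = 0.1, so none is given for single values. The procedure was tested on simulated data.

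The comparison, the gene lists and the naming rule were chosen with earlier results of these data known. The rule takes Hnf4a and Hnf4g, genes called by edgeR or DESeq2 in KO, the 10 higher and 10 lower genes of smallest p (5 CPM or more on average in the higher group, libraries not overlapping, no predicted symbol), the 2 most abundant and the 2 smallest-p members of each list, and the 5 rises and 5 falls of smallest p in WT. Genes named outside it (Trim12a, H2-Q7, Mug2, Nnmt, Cyp1a2, Tiparp, Nqo1, Ahr, Cyp1b1, F10, Lrat, Klrb1c, Cyp4a14, Ivl, Lepr, Rgs16, Selenbp1, Ero1l and mt-Rnr1) were chosen after their values were seen. Some genes that meet the rule are not reported. Lists are described by counts and medians, with the shares over all genes given for comparison, in place of a set test.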

Additional observations from a re-analysis of the deposited data

How the results depend on the processing

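The count of genes passing in KO was 0 in the main analysis and 0 under RLE scaling, a stricter filter, voom, the KO libraries alone and each of the 12 omissions of a library. It was 1 with DESeq2 and 15 without a filter on low counts, where Cyp1a1 was higher and the rest, Gys2, Fabp5 and Igfbp1 among them, were lower. The count of genes passing in WT was 329, against 894 with DESeq2 and 1667 without a filter, and omitting a library gave 0 to 2059. The interaction count was 0, against 218 with DESeq2 and 886 without a filter, and omitting a library gave 0 to 852, the highest without WT MJ041 replicate 3. The share of genes of at least 5 CPM with a KO interval within 1.5-fold was 93.28%, against 93.85% with voom, 97.33% without a filter and 94.73% with the KO libraries alone, and omitting a library gave 89.75% to 94.29%. The causes of these shifts were not tested.

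The labels number replicates alike across treatments without saying that a number marks a shared animal. In KO the deviations of same-numbered libraries from their group mean correlated at 0.349, 0.458 and 0.039 over genes. Vehicle replicate 3 correlated best with MJ041 replicate 1 (0.111). On the first component replicate 3 lay near the middle of its group, at 0.1 with MJ041 and -2.0 with vehicle. Its deviations along that component were thus small, so its low correlation cannot decide whether the numbers were shared. With the replicate block in the fit to all 12 libraries 0 genes passed in KO, 1943 in WT and 608 for the interaction, and 96.85% of the intervals lay within 1.5-fold. With the block in the KO libraries alone 6 genes passed (Cyp1a1 higher and the rest lower, Fabp5, Ivl, Lepr and mt-Rnr1 among them) and the share was 98.39%. Of the 156 named genes, 43 changed the sign of their log2 fold change under at least 1 alternative while passing in neither analysis. Depth limits genes under 1 CPM most.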

Other observations

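Several genes, chosen after their values were seen, passed in KO when the filter on low counts was dropped, and their values are given without a test. Lepr and mt-Rnr1 passed under 1 further alternative, the replicate block in the KO libraries alone. Lepr, the leptin receptor, was at 53.1, 25.9 and 38.0 CPM in MJ041 replicates 1, 2 and 3 and at 69.0, 47.9 and 60.2 CPM in the vehicle replicates. Within each number the MJ041 library was the lower. Rgs16, a regulator of G protein signalling, was at 64.4, 43.8 and 57.1 CPM against 65.5, 84.9 and 87.3 CPM, with no overlap. The mitochondrial ribosomal RNA mt-Rnr1 was at 1936, 1031 and 1321 CPM against 2304, 1585 and 2084 CPM.

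For other genes of that set vehicle replicate 1 was the lowest of its group while vehicle replicates 2 and 3 stood above all MJ041 libraries. Selenbp1, a selenium-binding methanethiol oxidase, was at 53.5 CPM in vehicle replicate 1 and at 201 and 143 CPM in vehicle replicates 2 and 3, against 99.8, 53.6 and 77.2 CPM with MJ041. Ero1l, an oxidase of the endoplasmic reticulum, was at 136, 326 and 248 CPM with vehicle against 202, 122 and 164 CPM with MJ041. F10, the clotting factor X gene, was at 56.1, 148 and 116 CPM with vehicle against 69.2, 62.9 and 67.4 CPM with MJ041.

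Cyp4a14, a fatty acid omega-hydroxylase under PPARα, kept the replicate order of Trim12a in KO, at 18.4, 4.75 and 11.98 CPM with MJ041 and 20.8, 5.17 and 12.2 CPM with vehicle. In the 6 KO libraries replicate 3 lay at 0.756 to 1.118 of the mean of replicates 1 and 2 for the 8 genes of this kind. In WT, Trim12a was at 0 to 0.124 CPM in all 6 libraries.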
